A study of Mus musculus with 32 samples.

Results

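Exosc3, a core subunit of the RNA exosome, was knocked down in mouse embryonic fibroblasts undergoing chemical reprogramming, and RNA levels were set against a control hairpin. The comparison takes the libraries labelled shE3 1 and shE3 2 against shCTR 1 and shCTR 2, which are 4 of the 32 libraries of the series, and covers every gene of their table. That table lists 55401 genes, of which 15700 had 1 TPM or more (TPM being transcripts scaled to a fixed library total) in at least 2 of the 4 libraries and were tested. The shE3 group has the genotype label Exosc3 knockdown and the shCTR group the label WT shRNA, with 2 libraries each. All 4 libraries are total RNA from OG2X129 embryonic fibroblasts in reprogramming medium, which holds knockout serum replacement, fetal bovine serum, bFGF and the small molecules VPA, CHIR99021, 616452, Parnate, Forskolin, AM580, EPZ004777 and vitamin C. The labels give neither the day of culture, nor the hairpin sequences, nor how many hairpins were used, and they do not say whether the libraries of a group are separate cultures, so p-values measure only the spread between these libraries. Other tables of the series hold cells given the compound labelled CD or DMSO, and cells with Rxra overexpression (Rxra OE) or its control (CTR), in the same medium and with 2 libraries per group.

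The RNA exosome degrades RNA from the 3′ end. In the nucleus it trims precursors of ribosomal and small nucleolar RNAs and removes promoter upstream, antisense and intronic transcripts, and in the cytoplasm it takes part in mRNA turnover. Exosc3 belongs to the cap of S1 and KH domain subunits through which RNA is threaded, while the catalytic activities lie in Dis3 and Exosc10. In chemical reprogramming, fibroblasts pass through a state that resembles extraembryonic endoderm (XEN-like) and expresses epithelial genes before pluripotent cells appear.

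Knockdown cells had less RNA of mitosis, DNA replication, XEN-like, epithelial and early pluripotency genes and of many noncoding RNAs, and more RNA of some matrix metalloproteinase, lysosomal, oxidative stress and p53 pathway genes. In all, 761 of 15700 genes (4.85%) were called higher in shE3 cells and 1934 (12.3%) lower, at a Benjamini-Hochberg adjusted p under 0.05. Changes are log2 ratios of TPM + 1, shE3 over shCTR, given with their standard error (SE), and they understate the change of low genes. Falls were the larger changes, since 552 of the genes called lower but 50 of those called higher had a log2 change beyond 1 in size. The median change of all tested genes was -0.04. The direction of small changes depends on the scaling of the libraries: relative to the median gene, 2224 genes (14.2%) were called higher and 2186 (13.9%) lower, which takes the share of calls that are higher to 50.4%, against 28.2% as deposited. Of the calls as deposited, 751 of the higher and 1767 of the lower ones passed in both scalings, and none changed direction. In bulk RNA, fewer cells of a type and less RNA per cell cannot be told apart.

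Within-group correlations across genes were 0.987 for shE3 and 0.986 for shCTR, and between-group ones ran from 0.968 to 0.971. Genes of the mitochondrial genome took 11.9% and 11.8% of TPM in shE3 against 15.5% and 14.4% in shCTR libraries. Genes annotated as microRNA took 13.4% and 15.2% in shE3 against 10.9% and 4.67% in shCTR libraries. Most of that share sits in the 7SL RNA loci of chromosome 12. There the 70-base Gm47287 was listed at 50683 and 56403 TPM in shE3 against 64267 and 0 TPM in shCTR libraries, so shCTR 2 differs from the 3 others. Depth is unknown, since TPM holds no read counts. Leaving out shCTR 2 took the calls to 1816 higher and 1263 lower, leaving out shE3 1 to 253 and 1496, and leaving out shE3 2 to 302 and 1398. Such a fit leaves 1 library in an arm, so the spread comes from the other group alone and the lone library is assumed to vary like it. A call lost in one of these fits can therefore go with a log2 change of the same size.

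Exosc3 lies at chr4:45316613-45342732 on the minus strand (GRCm38). It stood at 5.97 and 4.01 TPM in shE3 against 8.86 and 10.2 TPM in shCTR cells, a log2 change of -0.83 ± 0.17 (SE), adjusted p = 0.00767. Both shE3 libraries lay below both shCTR libraries, and shE3 2 was the lower of the pair. Without shCTR 2 the adjusted p was 0.0587. Of the 10 tested core subunits, 3 were called lower and none higher, with a median change of -0.17. Exosc8, a ring subunit, had 18.8 and 15.3 TPM in shE3 against 23.2 and 26.6 TPM in shCTR cells (-0.52 ± 0.13, adjusted p = 0.0189). Dis3, the catalytic subunit, had 12.8 and 12.0 TPM in shE3 against 15.6 and 18.3 TPM in shCTR cells (-0.42 ± 0.13, adjusted p = 0.0411). Neither call was stable, since Exosc8 missed the threshold without shE3 2 (adjusted p = 0.271) and without shCTR 2 (0.0697), and Dis3 missed it without shE3 1 (0.143), shE3 2 (0.29) or shCTR 2 (0.107).

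The other ring and cap subunits did not pass. Exosc7, a ring subunit, had 13.9 and 14.3 TPM in shE3 against 20.9 and 17.1 TPM in shCTR cells (-0.40 ± 0.13, adjusted p = 0.0518). Changes of Exosc1, Exosc2, Exosc4, Exosc5, Exosc9 and of the nuclear exonuclease Exosc10 lay between -0.18 and 0.17. Exosc6 stayed below 0.2 TPM in every library and was not tested. Among 19 cofactors and adaptors, 2 (10.5%) were called lower, near the 12.3% of all tested genes. Mphosph6, which ties the helicase Mtrex to the exosome, had 13.2 and 15.9 TPM in shE3 against 21 and 20.8 TPM in shCTR cells (-0.50 ± 0.12, adjusted p = 0.0181, and 0.29 without shE3 1). Mtrex itself had 38.6 and 39.2 TPM in shE3 against 42.9 and 46.8 TPM in shCTR cells and did not pass.

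The other cofactor called lower shares its sequence with a gene that was called higher. Pabpn1, the nuclear poly(A) binding protein that hands transcripts to the exosome, had 71.0 and 76.7 TPM in shE3 against 111 and 142 TPM in shCTR cells (-0.76 ± 0.12, adjusted p = 0.00148). Gm20521, annotated on the same strand across Bcl2l2 and Pabpn1, had 58.9 and 50.6 TPM in shE3 against 11.8 and 7.34 TPM in shCTR cells (2.43 ± 0.18, adjusted p = 1.08e-05). The sum of both was 130 and 127 TPM in shE3 against 123 and 150 TPM in shCTR cells, where the groups overlap. How reads were divided between the overlapping models was not tested, so both calls are uncertain. Beyond the exosome, 5 of 37 enzymes of decapping, deadenylation and 5′ decay (13.5%) were called lower and none higher. That share is near the 12.3% of all tested genes called lower. Of the 5, Lsm3, part of the Lsm ring that binds RNA 3′ ends, had 79.7 and 73.7 TPM in shE3 against 110 and 125 TPM in shCTR cells (-0.60 ± 0.10, adjusted p = 0.00235). Its adjusted p was 0.0726 without shE3 2, and the count of this list was 3 without shE3 1 and 1 without shE3 2. The core list had 2 calls without shE3 1, 1 without shE3 2 and 1 without shCTR 2.

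**Figure D1:**
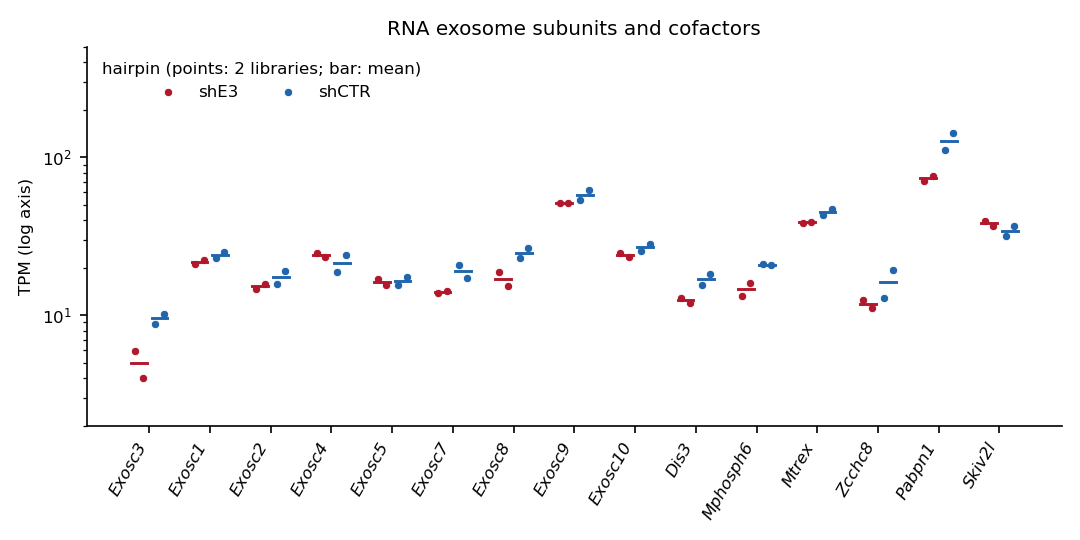
TPM (log axis) of exosome subunits and cofactors in each library, shE3 left of shCTR, with a bar at the mean of 2 libraries. Exosc3 shows the widest gap between hairpins among the core subunits (5.97 and 4.01 against 8.86 and 10.2 TPM), and the others lie closer together.

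Short noncoding RNA genes were called lower more often than the 12.3% of all tested genes, while long ones stood near that share. Of 162 tested small nucleolar RNA (snoRNA) genes, 53 (32.7%) were called lower and none higher, with a median change of -0.46. Relative to the median gene 34 of them were called lower. Of 204 tested microRNA genes, 68 (33.3%) were called lower and 5 higher (45 and 5 relative to the median gene), with a median of -0.52. Gm47305, a model inside a 7SL locus, is 1 of the 5. Protein-coding genes had a median of -0.02. Of the 178 tested antisense genes 7 were called higher and 17 (9.55%) lower, and of the 259 long intergenic RNAs 11 were called higher and 37 (14.3%) lower. These are short or low transcripts, and neither read length nor size selection is stated in the labels. A gene could pass the filter through a single group, and the counts include such genes. They also include 10 microRNA and 5 snoRNA genes called lower in the Dlk1 to Dio3 region. Some short models overlap other genes called lower, such as the microRNA model Gm44454 opposite to the histone gene Hist1h2ak. No strand setting is stated, so reads of such a pair cannot be told apart. Among those called, 2 snoRNA and 4 microRNA genes were listed at 0 in both shE3 libraries, and 1 microRNA gene in both shCTR libraries.

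Of the genes that host snoRNAs in their introns, 8 of 15 were called lower and none higher (median -0.45). Gas5, the host of a snoRNA cluster, had 33.1 and 34.7 TPM in shE3 against 59.0 and 65.5 TPM in shCTR cells (-0.86 ± 0.10, adjusted p = 0.000268). Snhg12 had 9.16 and 8.77 TPM in shE3 against 17.3 and 21 TPM in shCTR cells (-1.01 ± 0.13, adjusted p = 0.00041). For both genes the shE3 libraries sat close together and well below the shCTR ones. The count of hosts called lower was 5 without shE3 1 and 5 without shCTR 2, and 6 relative to the median gene. Snhg4, Snhg7, Snhg16 and Norad are not analysed here.

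Of 15 structured and nuclear-retained RNAs, 10 were called lower and none higher (median -0.64). Without Rn7s2, whose reads stand under another name in shE3 libraries, 9 of 14 were called lower (median -0.59). Neat1, the scaffold of paraspeckles, had 37.0 and 57.4 TPM in shE3 against 96.2 and 84.2 TPM in shCTR cells (-0.95 ± 0.17, adjusted p = 0.00291). Firre, a nuclear RNA of the X chromosome, had 16.3 and 15 TPM in shE3 against 26.1 and 28.4 TPM in shCTR cells (-0.76 ± 0.11, adjusted p = 0.00103). Neither gene overlapped between groups, although the shE3 libraries differed from each other more in Neat1. Rmrp, the RNA of RNase MRP that acts in ribosomal RNA processing, had 4329 and 5030 TPM in shE3 against 6684 and 6944 TPM in shCTR cells (-0.55 ± 0.13, adjusted p = 0.0129). Its call was lost without either shE3 library. The telomerase RNA Terc (29.7 and 31.3 TPM in shE3 against 32.9 and 39.2 TPM in shCTR cells) and the RNase P RNA Rpph1 (2694 and 2822 against 3005 and 3420 TPM) did not pass.

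The RNA of the signal recognition particle cannot be read from these values. Rn7s2, at chr12:69361182-69361481 on the minus strand, was listed at 0 in both shE3 libraries and at 20799 and 23193 TPM in shCTR libraries. Gm47305, a 70-base model wholly inside it on the same strand, was listed at 50664 and 55687 TPM in shE3 libraries and at 0 in both shCTR libraries. So the locus had reads in both groups under different names, and how reads were assigned was not tested. Malat1 was listed at 0 in 3 libraries and at 4014 TPM in shCTR 1. Gm27694, a model that overlaps Malat1 on the same strand, had 2895 and 2800 TPM in shE3 against 3471 and 3598 TPM in shCTR libraries. The Malat1 locus thus had reads in every library, and no fold is given for any of these genes.

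Among noncoding genes called higher is Gm14453, annotated antisense to Rbm38. It had 11.2 and 6.89 TPM in shE3 against 0.337 and 1.24 TPM in shCTR cells (2.50 ± 0.26, adjusted p = 0.000118). Rbm38 had 12.9 and 12.4 TPM in shE3 against 10.1 and 14.8 TPM in shCTR cells, which overlap. The labels state no strand setting, and without one reads of a gene and its antisense partner cannot be told apart.

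The imprinted Dlk1 to Dio3 region (chr12:109452823-110281097, GRCm38) holds a long maternally expressed transcription unit from Meg3 through Rian to Mirg, whose introns carry snoRNA and microRNA genes. The region was chosen after its values were seen, and some of its genes passed the filter through a single group. Of its 43 tested genes, 21 were called lower, 2 higher and 20 neither, with a median change of -0.76, and relative to the median gene 16 were lower and 2 higher. In 33 of the 43 both shE3 libraries lay below both shCTR libraries, as did 36.3% of all tested genes, while in 24.1% of all they lay above. Meg3 had 21.4 and 21.2 TPM in shE3 against 58.8 and 66.4 TPM in shCTR cells (-1.51 ± 0.11, adjusted p = 9.79e-06). Rian had 122 and 116 TPM in shE3 against 229 and 238 TPM in shCTR cells (-0.97 ± 0.09, adjusted p = 6.87e-05). Mirg had 6.34 and 6.02 TPM in shE3 against 13.8 and 15 TPM in shCTR cells (-1.10 ± 0.13, adjusted p = 0.000211). All 3 hosts thus lay clear of the control range, and Dio3, the deiodinase at the far end of the region, fell less (48.3 and 45.4 against 69.4 and 75.4 TPM, -0.62 ± 0.10, adjusted p = 0.00171). Dlk1 did not pass (adjusted p = 0.0556).

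The microRNA genes of the region did not all move one way, with 10 of 28 called lower and 2 higher. Mir453 had 1.73 and 1.80 TPM in shE3 against 5.60 and 6.37 TPM in shCTR cells (-1.34 ± 0.16, adjusted p = 0.000299). Mir323 had 0.836 and 0.719 TPM in shE3 against 3.83 and 3.39 TPM in shCTR cells (-1.37 ± 0.19, adjusted p = 0.000602). By contrast Mir433 had 1.64 and 1.61 TPM in shE3 against 0.348 and 0.328 TPM in shCTR cells (0.97 ± 0.22, adjusted p = 0.0113), and Mir432 had 3.26 and 3.80 TPM in shE3 against 1.64 and 1.79 TPM in shCTR cells (0.74 ± 0.18, adjusted p = 0.0164). Mir433 and Mir432 lie between Meg3 and Rian, whereas Mir453 lies within Mirg and Mir323 between Rian and Mirg. Outside the region, Mir199a-2 and Mir214, both inside Dnm3os on chromosome 1, were listed at 0 in both shE3 libraries. In shCTR libraries Mir199a-2 was listed at 5.90 and 9.18 TPM and Mir214 at 3.2 and 6.89 TPM. Their host Dnm3os had 15.5 and 17.2 TPM in shE3 against 21.1 and 26.3 TPM in shCTR cells (-0.50 ± 0.13, adjusted p = 0.023, 0.189 without shE3 1 and 0.0707 without shCTR 2). These values count reads over hairpin genes, not mature microRNAs, and are low. Mir323, Mir199a-2 and Mir214 passed the filter through the shCTR libraries alone, and Mir433 through the shE3 libraries alone. The mature sequences of these genes from RefSeq (GRCm38.p6) are given 5′ to 3′ with the seed, bases 2 to 8, in capitals, since the seed sets which targets each one pairs with, and no seed is shared between the genes shown.
miR-453: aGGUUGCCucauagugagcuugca
miR-323-3p: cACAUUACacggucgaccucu
miR-433-3p: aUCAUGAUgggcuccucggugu
miR-432: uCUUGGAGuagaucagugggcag
miR-199a-5p: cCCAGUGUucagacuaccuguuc
miR-199a-3p: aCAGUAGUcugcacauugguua
miR-214-5p: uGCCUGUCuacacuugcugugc
miR-214-3p: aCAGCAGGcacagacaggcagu

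Nearly all mitosis and spindle genes were lower in knockdown cells, with 51 of 55 called lower and none higher (median -1.21), against 12.3% of all tested genes. Cdc20, the activator of the anaphase promoting complex, had 6.82 and 7.80 TPM in shE3 against 17.4 and 19.2 TPM in shCTR cells (-1.22 ± 0.13, adjusted p = 0.000121). Ccnb1, cyclin B1, had 11.2 and 9.56 TPM in shE3 against 28.0 and 33.3 TPM in shCTR cells (-1.48 ± 0.13, adjusted p = 4.00e-05). Top2a, which untangles chromosomes before anaphase, had 16.2 and 17.2 TPM in shE3 against 50.7 and 54.9 TPM in shCTR cells (-1.60 ± 0.11, adjusted p = 6.74e-06). In each of these genes both shE3 libraries lay below both shCTR libraries. Ccna2 (cyclin A2) had 6.13 and 6.71 TPM in shE3 against 20.5 and 21.5 TPM in shCTR cells (-1.57 ± 0.12, adjusted p = 1.94e-05), and Cenpa, the centromeric histone, 12.0 and 13.5 against 32.8 and 34.4 TPM (-1.33 ± 0.11, adjusted p = 3.39e-05). The 4 members that did not pass were Kifc1, Cdc25b, Ckap2 and Bub3, and Ckap2, also a p53 target, had 23.7 and 21.4 TPM in shE3 against 19.6 and 20.9 TPM in shCTR cells. The count was 47 to 51 when any library was left out.

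DNA replication genes fell less, with 32 of 46 called lower and 1 higher (median -0.69). The helicase subunit Mcm6 had 9.68 and 8.29 TPM in shE3 against 26.8 and 29.0 TPM in shCTR cells (-1.53 ± 0.12, adjusted p = 2.31e-05). Mcm5, another subunit, had 6.92 and 7.36 TPM in shE3 against 18.9 and 20.0 TPM in shCTR cells (-1.33 ± 0.12, adjusted p = 5.03e-05). Uhrf1, which keeps DNA methylation through replication, had 4.43 and 4.63 TPM in shE3 against 12.6 and 13.2 TPM in shCTR cells (-1.33 ± 0.13, adjusted p = 8.03e-05). All 3 were clear of the controls, whereas the sliding clamp Pcna, at a higher level, changed by less (79.5 and 85.0 against 132 and 140 TPM, -0.72 ± 0.10, adjusted p = 0.000507). The member called higher, the dUTPase Dut, had 178 and 174 TPM in shE3 against 135 and 147 TPM in shCTR cells (0.31 ± 0.09, adjusted p = 0.0419), a call lost without either shE3 library. Leaving out shCTR 2 left 23 members called lower. Replication-dependent histone genes were called lower in 45 of 50 (median -0.88). They have near-identical copies, so single members are uncertain.

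Promoters of cell cycle genes are known for the CHR element in mitosis genes and E2F sites in replication genes, and these letters were searched for. RefSeq promoter windows of 300 bases (250 before to 50 after the start, GRCm38.p6, both strands) matched 47 of the 55 mitosis genes, 38 of the 46 replication genes and 10204 of 13061 protein-coding genes tested. The cell cycle genes homology region (CHR, TTTGAA or TTCGAA) was present in 36 of the 47 mitosis genes (76.6%), against 16.2% of all. An E2F site (TTTCCCGC or TTTGGCGC) was present in 11 of the 38 replication genes (28.9%) and in none of the mitosis genes, against 3.44% of all. A CCAAT box (CCAAT) was present in 74.5% of mitosis and 65.8% of replication genes, against 43.2% of all. A match of letters is a description, not a binding site. The 150 bases before the start are shown for 4 of these genes, with E2F (Mcm6, Mcm5) and CHR (Cdc20, Cdk1) matches in capitals, none of which overlapped another motif searched. They lie at chr1:128359706-128359855 minus strand, chr8:75109359-75109508 plus strand, chr4:118437344-118437493 minus strand and chr10:69352913-69353062 minus strand, in the order given.
Mcm6: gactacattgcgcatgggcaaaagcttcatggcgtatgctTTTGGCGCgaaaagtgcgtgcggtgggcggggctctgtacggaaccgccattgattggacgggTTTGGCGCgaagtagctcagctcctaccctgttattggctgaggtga
Mcm5: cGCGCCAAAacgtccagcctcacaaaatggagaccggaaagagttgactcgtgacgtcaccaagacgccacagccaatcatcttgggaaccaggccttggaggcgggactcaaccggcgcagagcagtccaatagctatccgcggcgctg
Cdc20: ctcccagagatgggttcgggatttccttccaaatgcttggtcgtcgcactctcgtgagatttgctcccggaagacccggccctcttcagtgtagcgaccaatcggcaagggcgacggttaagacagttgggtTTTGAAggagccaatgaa
Cdk1: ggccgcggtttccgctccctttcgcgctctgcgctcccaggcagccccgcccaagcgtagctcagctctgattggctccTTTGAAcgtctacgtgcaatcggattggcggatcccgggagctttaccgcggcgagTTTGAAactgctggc

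**Figure D2:**
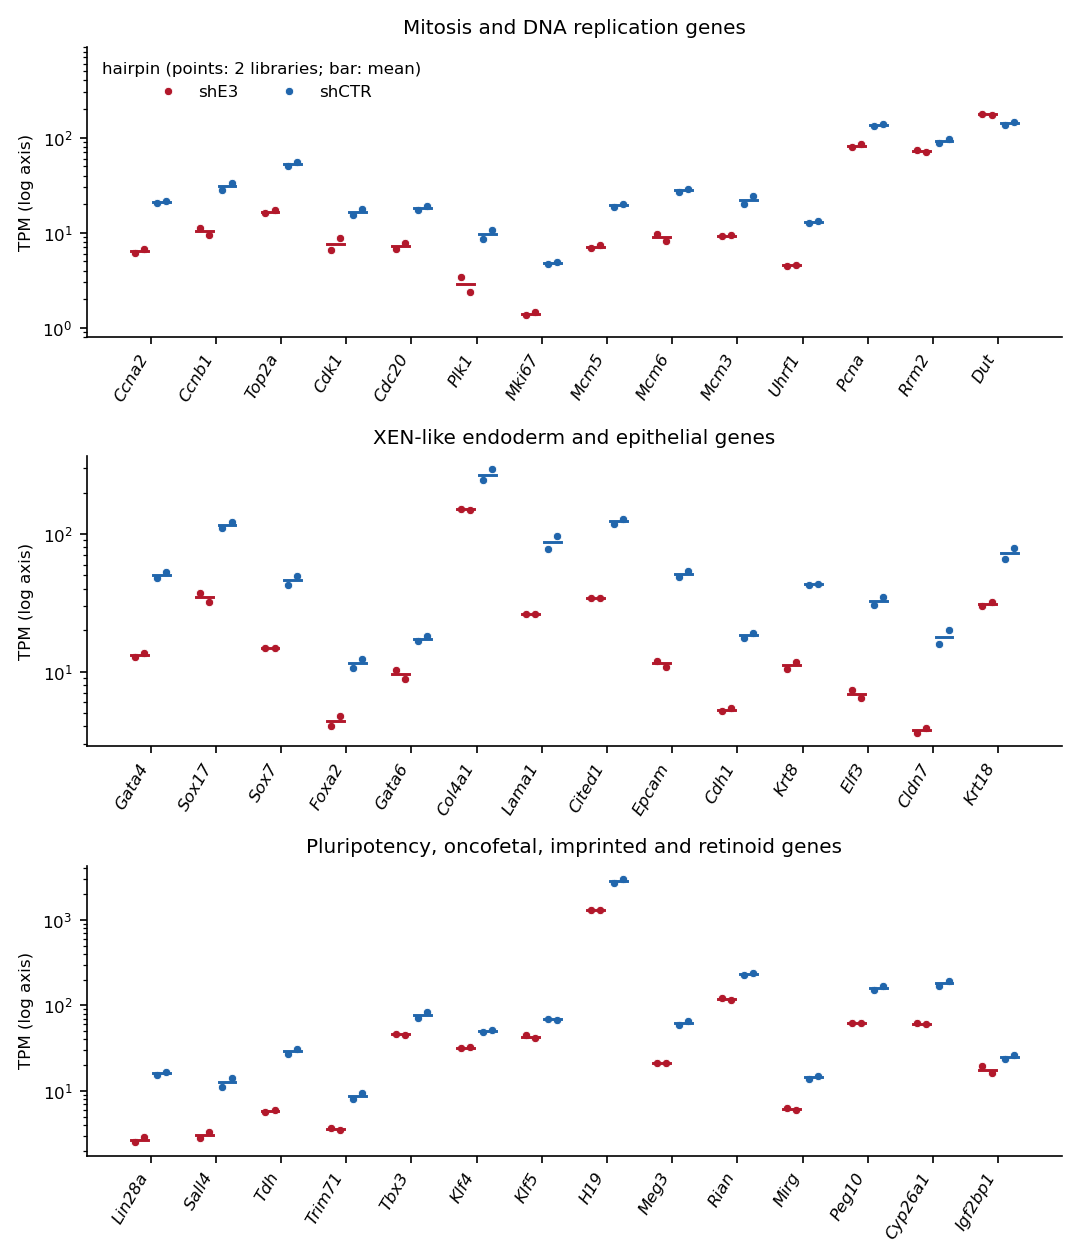
TPM (log axis) of named cell cycle, XEN-like, epithelial, pluripotency, imprinted and retinoid genes in each library, shE3 left of shCTR, with a bar at the mean of 2 libraries. In every gene shown except Dut (178 and 174 against 135 and 147 TPM) both shE3 points lie below both shCTR points.

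XEN-like endoderm genes were lower, with 19 of 27 called lower and none higher (median -0.83). Relative to the median gene 21 were lower and 2 higher. Sox17, an endoderm transcription factor, had 37.4 and 32.1 TPM in shE3 against 111 and 122 TPM in shCTR cells (-1.72 ± 0.11, adjusted p = 5.76e-06). Cited1, a transcriptional coactivator, had 34.3 and 34.1 TPM in shE3 against 118 and 129 TPM in shCTR cells (-1.82 ± 0.10, adjusted p = 3.03e-06). Srgn, the proteoglycan serglycin, had 26.9 and 26.7 TPM in shE3 against 96.6 and 103 TPM in shCTR cells (-1.86 ± 0.10, adjusted p = 3.03e-06). In these genes both shE3 libraries stood below both shCTR libraries. Gata6, the other GATA factor of the endoderm, fell less than Gata4: it had 10.4 and 8.90 TPM in shE3 against 16.6 and 18 TPM in shCTR cells (-0.79 ± 0.13, adjusted p = 0.00165), beside 12.8 and 13.7 against 47.8 and 53.2 TPM for Gata4.

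Basement membrane genes of the XEN list did not move together. Lama1, laminin alpha 1, had 26.0 and 26.0 TPM in shE3 against 77.9 and 96.3 TPM in shCTR cells (-1.70 ± 0.12, adjusted p = 8.73e-06). Col4a1, a chain of collagen IV, had 153 and 148 TPM in shE3 against 247 and 294 TPM in shCTR cells (-0.83 ± 0.11, adjusted p = 0.000364). Lamb1 (190 and 191 against 218 and 249 TPM), Sparc (1218 and 1216 against 1354 and 1509 TPM) and Nid1 (320 and 309 against 255 and 280 TPM) did not pass. Nid1 and Plat were the pair called higher relative to the median gene. Pdgfra, a receptor shared by XEN cells and fibroblasts, had 538 and 548 TPM in shE3 against 643 and 697 TPM in shCTR cells and did not pass (adjusted p = 0.0531).

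Of 31 epithelial genes, 23 were called lower and none higher (median -1.17). Elf3, an epithelial transcription factor, had 7.40 and 6.44 TPM in shE3 against 30.4 and 34.7 TPM in shCTR cells (-2.08 ± 0.13, adjusted p = 5.09e-06). The simple-epithelium keratin Krt8 had 10.4 and 11.8 TPM in shE3 against 42.5 and 43.6 TPM in shCTR cells (-1.87 ± 0.11, adjusted p = 5.09e-06). Cdh1, the adherens junction protein E-cadherin, had 5.2 and 5.40 TPM in shE3 against 17.6 and 19.1 TPM in shCTR cells (-1.62 ± 0.13, adjusted p = 1.94e-05). Tight junction genes fell alongside, with Cldn7 at 3.57 and 3.90 TPM in shE3 against 15.8 and 20.1 TPM in shCTR cells (-1.99 ± 0.15, adjusted p = 1.26e-05) and Ocln at 2.83 and 3.49 against 10.5 and 12.1 TPM (-1.57 ± 0.15, adjusted p = 7.25e-05). The desmosomal plaque gene Dsp was no part of this, with 42.9 and 41.5 TPM in shE3 against 37.5 and 42.4 TPM in shCTR cells. When any library was left out, 21 to 26 epithelial and 16 to 19 XEN-like genes were called lower.

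Most pluripotency genes that could be tested were lower. Of the 13 tested, 11 were called lower and 1 higher (median -0.84), while 17 others, Nanog, Pou5f1 and Zfp42 among them, did not reach the filter, and Nanog and Pou5f1 stayed below 0.25 TPM in every library. Lin28a, an RNA binding protein that blocks let-7 maturation, had 2.50 and 2.86 TPM in shE3 against 15.3 and 16.8 TPM in shCTR cells (-2.21 ± 0.14, adjusted p = 5.76e-06). Tdh, the threonine dehydrogenase of mouse pluripotent cells, had 5.74 and 6.03 TPM in shE3 against 27.1 and 30.8 TPM in shCTR cells (-2.12 ± 0.12, adjusted p = 5.09e-06). Sall4, a zinc finger factor, had 2.85 and 3.34 TPM in shE3 against 11.1 and 14.4 TPM in shCTR cells (-1.74 ± 0.16, adjusted p = 4.92e-05). None of the 3 overlapped between groups. Klf4, a factor that fibroblasts express too, had 31.6 and 32.8 TPM in shE3 against 48.9 and 52.0 TPM in shCTR cells (-0.63 ± 0.10, adjusted p = 0.00159). Sox2 was the member called higher, at 2.31 and 1.60 TPM in shE3 against 0.861 and 0.645 TPM in shCTR cells (0.75 ± 0.22, adjusted p = 0.0384), a call lost without shCTR 1 (adjusted p = 0.0956) and without shCTR 2 (0.142), while without either shE3 library the gene was below the filter.

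Among oncofetal and imprinted genes some abundant transcripts fell. H19, a maternally expressed noncoding RNA, had 1316 and 1305 TPM in shE3 against 2699 and 3011 TPM in shCTR cells (-1.12 ± 0.11, adjusted p = 6.45e-05). Its neighbour Igf2 had 422 and 631 TPM in shE3 against 630 and 661 TPM in shCTR cells and did not pass. Peg10, a retrotransposon-derived gene of the placenta, had 61.5 and 61.8 TPM in shE3 against 153 and 167 TPM in shCTR cells (-1.36 ± 0.10, adjusted p = 9.79e-06). Of 10 oncofetal genes 6 were called lower and none higher, and of 31 imprinted genes 12 lower and 1 higher (15 and 5 relative to the median gene). The imprinted gene called higher, the lysosomal enzyme receptor Igf2r, had 266 and 260 TPM in shE3 against 184 and 207 TPM in shCTR cells (0.43 ± 0.10, adjusted p = 0.0131), a call lost without either shE3 library. Leaving out shE3 1 or shE3 2 left 8 or 7 imprinted genes called lower, and leaving out shCTR 2 left 3 oncofetal ones.

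Several of the largest falls belong to no list. Car4, a membrane carbonic anhydrase, had 1.55 and 1.22 TPM in shE3 against 11.1 and 12.1 TPM in shCTR cells (-2.40 ± 0.16, adjusted p = 6.65e-06). Spink1, a secreted protease inhibitor, had 4.20 and 4.23 TPM in shE3 against 18.3 and 19.5 TPM in shCTR cells (-1.93 ± 0.13, adjusted p = 6.65e-06). Pdyn, the opioid precursor prodynorphin, had 6.50 and 5.67 TPM in shE3 against 22.9 and 29.4 TPM in shCTR cells (-1.93 ± 0.14, adjusted p = 1.32e-05). Klf8, Aoc1 and the pair of unnamed genes Gm10800 and Gm44359 fell by 1.91 to 2.27. Gm44359 overlaps the histone gene Hist1h2ad on the opposite strand. Hist1h2ad had 48.0 and 37.7 TPM in shE3 against 80.6 and 74.2 TPM in shCTR cells. Gm44350, opposite to the histone gene Hist1h2ac, changed by -2.82, and by -0.99 without shE3 1. No strand setting is stated, so the falls of Gm44359 and Gm44350 are uncertain. Gldc, the glycine decarboxylase, had 8.71 and 8.33 TPM in shE3 against 24.6 and 26.5 TPM in shCTR cells (-1.48 ± 0.12, adjusted p = 2.14e-05). Of 22 genes of threonine, serine and one-carbon metabolism, 13.6% were called lower, near the 12.3% of all tested genes. The genes called lower were 3, Tdh, Gldc and Shmt1, and none was called higher. That count was 5 relative to the median gene and 6 without shCTR 1.

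The retinoid genes bear on the medium, since AM580, an agonist of the retinoic acid receptor, is in every library's medium. Of 18, 3 (16.7%) were called lower, near the 12.3% of all tested genes, and none higher (5 higher and 3 lower relative to the median gene). Cyp26a1, the retinoic acid hydroxylase that the receptor induces, had 61.5 and 61.0 TPM in shE3 against 169 and 191 TPM in shCTR cells (-1.54 ± 0.10, adjusted p = 6.32e-06). The related Cyp26b1 (631 and 614 against 533 and 579 TPM) and the receptor gene Rarb (167 and 159 against 142 and 152 TPM) did not pass. Rxra, the retinoid X receptor gene at chr2:27676440-27762957 on the plus strand, had 43.0 and 39.4 TPM in shE3 against 28.8 and 36.6 TPM in shCTR cells, a change of 0.34 ± 0.13 with adjusted p = 0.0928, and it passed relative to the median gene. Without shCTR 2 it passed as deposited too (adjusted p = 0.0114). A direct repeat of the receptor half-sites spaced by 5 bases (AGGTCA or AGTTCA, then 5 bases of any kind, then AGGTCA or AGTTCA) was found in 1 of the 14 retinoid genes with a window (7.14%), Cyp26a1, against 4 of the 10204 protein-coding genes (0.0392%). It is in capitals in the 150 bases before the start, chr19:37697658-37697807, plus strand.
Cyp26a1: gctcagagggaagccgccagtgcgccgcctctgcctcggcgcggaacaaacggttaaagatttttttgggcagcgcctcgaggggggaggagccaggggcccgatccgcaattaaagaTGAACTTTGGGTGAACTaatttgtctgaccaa

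Targets of the lipid receptors LXR and PPAR, which pair with Rxra, moved both ways, with 3 of 22 called higher and 6 lower (7 and 7 relative to the median gene). Fabp3, a fatty acid carrier, had 8.64 and 9.02 TPM in shE3 against 25.6 and 25.2 TPM in shCTR cells (-1.43 ± 0.12, adjusted p = 2.35e-05). Apoe, apolipoprotein E, had 12.2 and 12.5 TPM in shE3 against 20.9 and 21 TPM in shCTR cells (-0.72 ± 0.11, adjusted p = 0.00143). Cd36, a fatty acid and scavenger receptor, had 13.8 and 16.0 TPM in shE3 against 5.54 and 6.10 TPM in shCTR cells (1.22 ± 0.14, adjusted p = 0.000153). All 3 separated the groups cleanly, in both directions. Leaving out shE3 1 left 1 higher and 3 lower, leaving out shE3 2 left 2 and 3, leaving out shCTR 1 left 1 and 6, and leaving out shCTR 2 left 6 and 3.

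Interferon-stimulated genes, which double-stranded RNA can induce through cytosolic sensors, were more often lower than higher. Of 31, 10 (32.3%) were called lower and 1 (3.23%) higher (median -0.31). All tested genes were also more often lower (12.3%) than higher (4.85%). Ifitm1, a membrane protein that restricts virus entry, had 37.9 and 37.9 TPM in shE3 against 80.2 and 96.1 TPM in shCTR cells (-1.19 ± 0.11, adjusted p = 5.21e-05). Oasl2, an OAS-like protein, had 1.66 and 1.16 TPM in shE3 against 5.40 and 5.53 TPM in shCTR cells (-1.43 ± 0.18, adjusted p = 0.000323). Psmb8, an immunoproteasome subunit, had 1.89 and 2.02 TPM in shE3 against 5.06 and 5.97 TPM in shCTR cells (-1.14 ± 0.17, adjusted p = 0.0009). In these genes the groups did not overlap. Ifit2 was called higher at 131 and 122 TPM in shE3 against 92.5 and 99.6 TPM in shCTR cells (0.40 ± 0.10, adjusted p = 0.0173), a call lost without either shE3 library. Irf7, a factor of the response, and the RNA sensors Ifih1 and Ddx58 did not pass. Of 16 genes of nucleic acid sensing 3 (18.8%) were called lower and none higher, against 12.3% of all tested genes called lower. Irf3, the factor downstream of the sensors, had 24.6 and 26.0 TPM in shE3 against 34.8 and 39.4 TPM in shCTR cells (-0.53 ± 0.11, adjusted p = 0.00734). Without shCTR 2, 6 interferon-stimulated genes were called lower and 1 sensing gene, and without shE3 2 the sensing count was likewise 1. Irf3 missed the threshold without shE3 1.

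An interferon response element (ISRE, here TTTC, 2 bases of any kind and TTTC again) was found in 12 of the 25 interferon-stimulated genes with a promoter window (48%), against 3.6% of all. It occurred in 4 of the 8 such genes that were called lower. For an example at a high and a low level, Ifitm2 had 234 and 243 TPM in shE3 against 297 and 320 TPM in shCTR cells (-0.37 ± 0.09, adjusted p = 0.0205) and Gbp3 had 1.26 and 1.09 against 2.23 and 3.72 TPM (-0.84 ± 0.22, adjusted p = 0.0233). The Ifitm2 call was lost without either shE3 library and the Gbp3 call without shCTR 2. Their 150 bases before the start are at chr7:140955962-140956111, minus strand, and chr3:142559894-142560043, plus strand, with the match on either strand in capitals.
Ifitm2: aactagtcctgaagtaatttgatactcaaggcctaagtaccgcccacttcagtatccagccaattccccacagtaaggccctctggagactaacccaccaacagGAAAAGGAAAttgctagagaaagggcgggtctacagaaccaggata
Gbp3: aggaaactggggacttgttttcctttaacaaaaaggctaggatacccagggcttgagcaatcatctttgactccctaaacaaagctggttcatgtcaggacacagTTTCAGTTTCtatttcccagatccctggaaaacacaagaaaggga

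Among genes that were higher in knockdown cells, matrix metalloproteinases and their inhibitors had 8 of 19 members called higher and 2 lower (median 0.31), against 4.85% of all tested genes called higher. Mmp10, stromelysin 2, had 74.0 and 74.9 TPM in shE3 against 35.7 and 39.3 TPM in shCTR cells (0.97 ± 0.10, adjusted p = 0.000104). Timp3, a matrix-bound inhibitor of these proteases, had 654 and 631 TPM in shE3 against 387 and 425 TPM in shCTR cells (0.66 ± 0.10, adjusted p = 0.000898). Mmp3, stromelysin 1, had 45.0 and 43.7 TPM in shE3 against 27.2 and 29.5 TPM in shCTR cells (0.63 ± 0.10, adjusted p = 0.00186). Proteases and an inhibitor were thus both higher, without overlap between the groups, and Adamts9, a proteoglycan protease, was lower (26.1 and 26.9 against 42.8 and 46.1 TPM, -0.72 ± 0.10, adjusted p = 0.0008). Without either shE3 library the count called higher was 4, and without shCTR 2 it was 12.

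Fibroblast genes moved by small amounts, more often upward. Of 34 fibroblast and mesenchymal genes 6 (17.6%) were called higher and 2 (5.88%) lower, with a median of 0.18. Among all tested genes these shares were 4.85% and 12.3%. Relative to the median gene 18 were called higher and 2 lower, against 14.2% and 13.9% of all. In 21 of the 34 both shE3 libraries lay above both shCTR libraries, and in 10 below. Among all tested genes 24.1% lay above and 36.3% below. S100a4, a calcium binding protein of motile fibroblasts, had 152 and 167 TPM in shE3 against 91.9 and 122 TPM in shCTR cells (0.59 ± 0.13, adjusted p = 0.00999, and 0.0982 without shE3 2). Without shE3 1 or shE3 2 the count called higher was 1 or 0, and without shCTR 2 it was 18. Of 19 collagen genes, 1 was called higher and 1 lower. Col18a1, a basement membrane collagen, had 502 and 501 TPM in shE3 against 336 and 391 TPM in shCTR cells (0.47 ± 0.10, adjusted p = 0.0103), and Col3a1, a fibrillar one, 282 and 274 against 342 and 399 TPM (-0.41 ± 0.10, adjusted p = 0.0196). Relative to the median gene 3 collagens were called each way. Both collagen calls were lost without either shE3 library, where the spread is that of the shCTR pair alone. The log2 changes were then 0.47 and 0.47 for Col18a1 and -0.43 and -0.39 for Col3a1. Igfbp3, which binds insulin-like growth factors, had 2940 and 2820 TPM in shE3 against 1767 and 1974 TPM in shCTR cells (0.62 ± 0.11, adjusted p = 0.00284), with the call lost in the same way, while Igfbp2 had 38.3 and 37.7 TPM in shE3 against 67.2 and 76.8 TPM in shCTR cells (-0.90 ± 0.10, adjusted p = 0.000211). Of 14 genes of that pathway 2 were called each way (4 higher and 3 lower relative to the median gene), and without either shE3 library none was called higher and 1 lower.

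Targets of p53 and inhibitors of cyclin-dependent kinases moved by small amounts, with 6 of 29 called higher and 1 lower (12 and 3 relative to the median gene). Cdkn2b, the kinase inhibitor p15, had 132 and 116 TPM in shE3 against 88.0 and 94.8 TPM in shCTR cells (0.44 ± 0.10, adjusted p = 0.0141). Mdm2, the p53 ubiquitin ligase and target, had 272 and 252 TPM in shE3 against 189 and 206 TPM in shCTR cells (0.41 ± 0.10, adjusted p = 0.0153). Cdkn1a, the inhibitor p21, had 804 and 784 TPM in shE3 against 569 and 668 TPM in shCTR cells (0.36 ± 0.11, adjusted p = 0.0369). No library of one group overlapped the other in these genes, but each call was lost without either shE3 library, where the shCTR pair alone gives the spread, and no member was called higher in either fit. The log2 changes without shE3 1 and without shE3 2 were 0.35 and 0.52 for Cdkn2b, 0.35 and 0.46 for Mdm2, and 0.35 and 0.38 for Cdkn1a. The count was 10 without shCTR 2. Cdkn1b, the inhibitor p27, went the other way at 8.41 and 8.43 TPM in shE3 against 15.4 and 15.6 TPM in shCTR cells (-0.81 ± 0.12, adjusted p = 0.00103).

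Of 38 lysosomal genes, 9 were called higher and 1 lower (26 and 1 relative to the median gene) and a median of 0.20. Grn, progranulin, had 217 and 216 TPM in shE3 against 138 and 164 TPM in shCTR cells (0.53 ± 0.10, adjusted p = 0.00577). Psap, the precursor of the saposins, had 886 and 860 TPM in shE3 against 603 and 692 TPM in shCTR cells (0.43 ± 0.10, adjusted p = 0.0156). Lipa, the acid lipase, had 445 and 431 TPM in shE3 against 318 and 357 TPM in shCTR cells (0.38 ± 0.10, adjusted p = 0.0229). These 3 calls were lost without either shE3 library, where the shCTR pair alone gives the spread, with log2 changes of 0.52 and 0.53 for Grn, 0.41 and 0.45 for Psap, and 0.35 and 0.40 for Lipa. The count called higher was 2 without shE3 1, 1 without shE3 2 and 22 without shCTR 2. Ctsc, a cathepsin that activates granule proteases, was the member called lower (2.85 and 2.30 against 5.22 and 6.61 TPM, -0.95 ± 0.17, adjusted p = 0.00358). An E-box (CACGTG), the core of the site that TFEB binds, was found in 12 of the 30 lysosomal genes with a promoter window (40%), against 11.8% of all.

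Of 27 oxidative stress and NRF2 target genes, 8 were called higher and 4 lower (15 and 5 relative to the median gene). Nqo1, a quinone reductase, had 33.5 and 32.6 TPM in shE3 against 15.1 and 20.5 TPM in shCTR cells (0.87 ± 0.14, adjusted p = 0.00149). Gsta4, a glutathione transferase, had 95.4 and 95.1 TPM in shE3 against 59.8 and 63.2 TPM in shCTR cells (0.62 ± 0.10, adjusted p = 0.00118). Gstm1, another transferase, had 14.2 and 13.4 TPM in shE3 against 28.4 and 31.3 TPM in shCTR cells (-1.06 ± 0.11, adjusted p = 0.000126). The family thus moved in both directions within the same libraries. Hmox1, heme oxygenase, had 122 and 127 TPM in shE3 against 87.9 and 90.1 TPM in shCTR cells (0.48 ± 0.09, adjusted p = 0.00495), a call lost without either shE3 library. Without either of those libraries 3 members were called higher and 2 lower, and without shCTR 2, 15 and 4.

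Of 28 hypoxia and glycolysis genes, 8 were called lower and 4 higher (9 and 8 relative to the median gene). Ndrg1, a hypoxia-induced stress protein, had 48.4 and 50.5 TPM in shE3 against 97.9 and 105 TPM in shCTR cells (-1.02 ± 0.10, adjusted p = 6.43e-05). P4ha2, a collagen prolyl hydroxylase, had 47.6 and 50.1 TPM in shE3 against 98.4 and 122 TPM in shCTR cells (-1.15 ± 0.12, adjusted p = 8.67e-05). Vegfa, the vascular growth factor, had 64.7 and 59.8 TPM in shE3 against 96.1 and 106 TPM in shCTR cells (-0.69 ± 0.10, adjusted p = 0.000898). These 3 genes kept their calls in every fit that left out a library. The glycolytic enzyme Pkm had 1982 and 1947 TPM in shE3 against 1308 and 1517 TPM in shCTR cells (0.48 ± 0.11, adjusted p = 0.013), lost without either shE3 library, while Gapdh, Ldha, Pgk1 and Hk2 did not pass. The count called higher was 0 without either shE3 library and 8 without shCTR 2, and the count called lower was 5 without shE3 2.

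**Figure D3:**
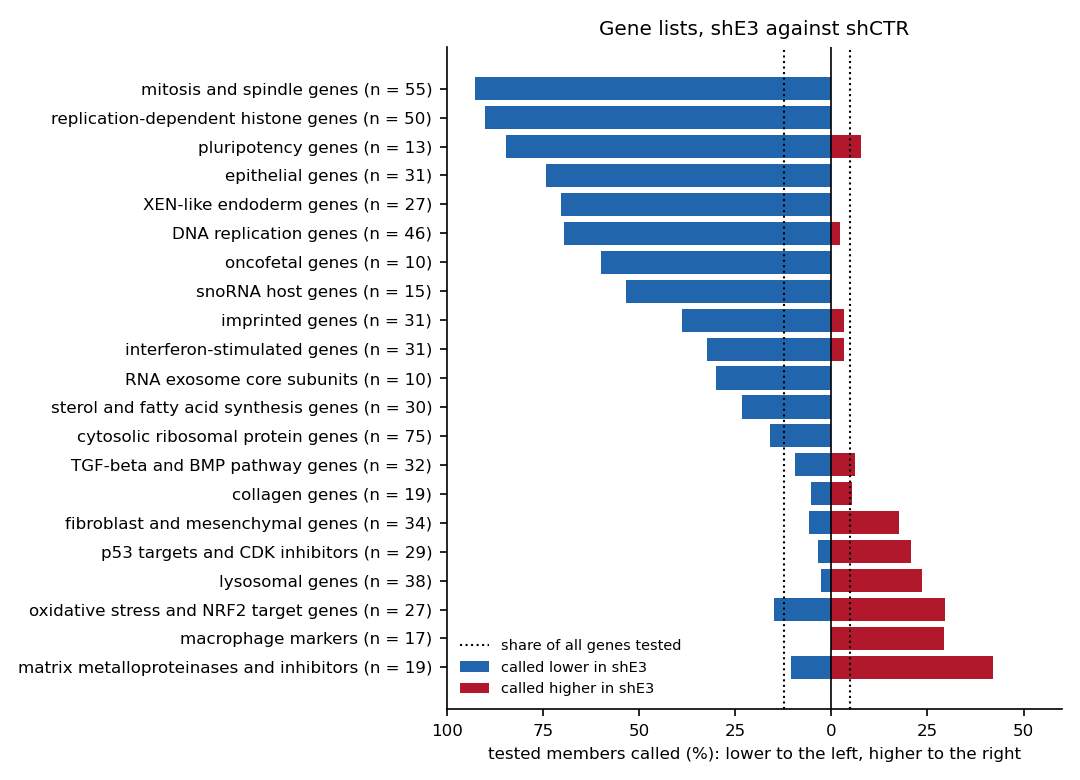
Share of each list's tested members called lower (left) and higher (right) in shE3 against shCTR, with the number of tested members after each name and dotted lines at the shares of all tested genes (12.3% lower, 4.85% higher). Mitosis genes stand at 51 of 55 lower and metalloproteinase genes at 8 of 19 higher, at opposite ends.

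Some of the largest rises were in genes of macrophages and other myeloid cells. Of 17 tested macrophage markers 5 were called higher and none lower (median 0.20). Tyrobp, a myeloid signalling adaptor, had 8.63 and 7.45 TPM in shE3 against 3.05 and 1.74 TPM in shCTR cells (1.44 ± 0.20, adjusted p = 0.00056). Lyz2, lysozyme, had 339 and 337 TPM in shE3 against 126 and 154 TPM in shCTR cells (1.27 ± 0.11, adjusted p = 3.39e-05). Ccr1, a chemokine receptor, had 16.8 and 15.8 TPM in shE3 against 5.60 and 6.59 TPM in shCTR cells (1.29 ± 0.13, adjusted p = 9.87e-05). Plek, a platelet and leukocyte kinase substrate, had 13.6 and 11.4 TPM in shE3 against 3.68 and 4.84 TPM in shCTR cells (1.36 ± 0.16, adjusted p = 0.000206), and Lilrb4a and Mcpt9 were likewise called higher. In 9 of the 17 both shE3 libraries lay above both shCTR libraries, and in 1 below, beside 24.1% of all tested genes above and 36.3% below. Of the defining markers, Csf1r (3.1 and 2.48 against 1.65 and 2.37 TPM), Adgre1 (1.19 and 1.52 against 1.10 and 1.11 TPM) and Cd68 were above in both shE3 libraries without passing the test, and Cd14, Mrc1 and the C1q genes did not pass either. The 7 other markers, Ptprc, Spi1 and Itgam among them, were below the filter, and none was listed at 0 in all libraries. The summed level of the whole list was 426 and 428 TPM in shE3 against 188 and 223 TPM in shCTR libraries, most of it Lyz2. Trem2 missed the threshold without shCTR 1 (adjusted p = 0.0634), and Ctss without shE3 2 or shCTR 2. Ctss, Grn, Psap and Lipa are genes that macrophages also express at a high level, and Mmp12 is a macrophage protease. These genes were called higher in shE3 cells too. The part of macrophages in the lysosomal and metalloproteinase rises was not tested.

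**Figure D4:**
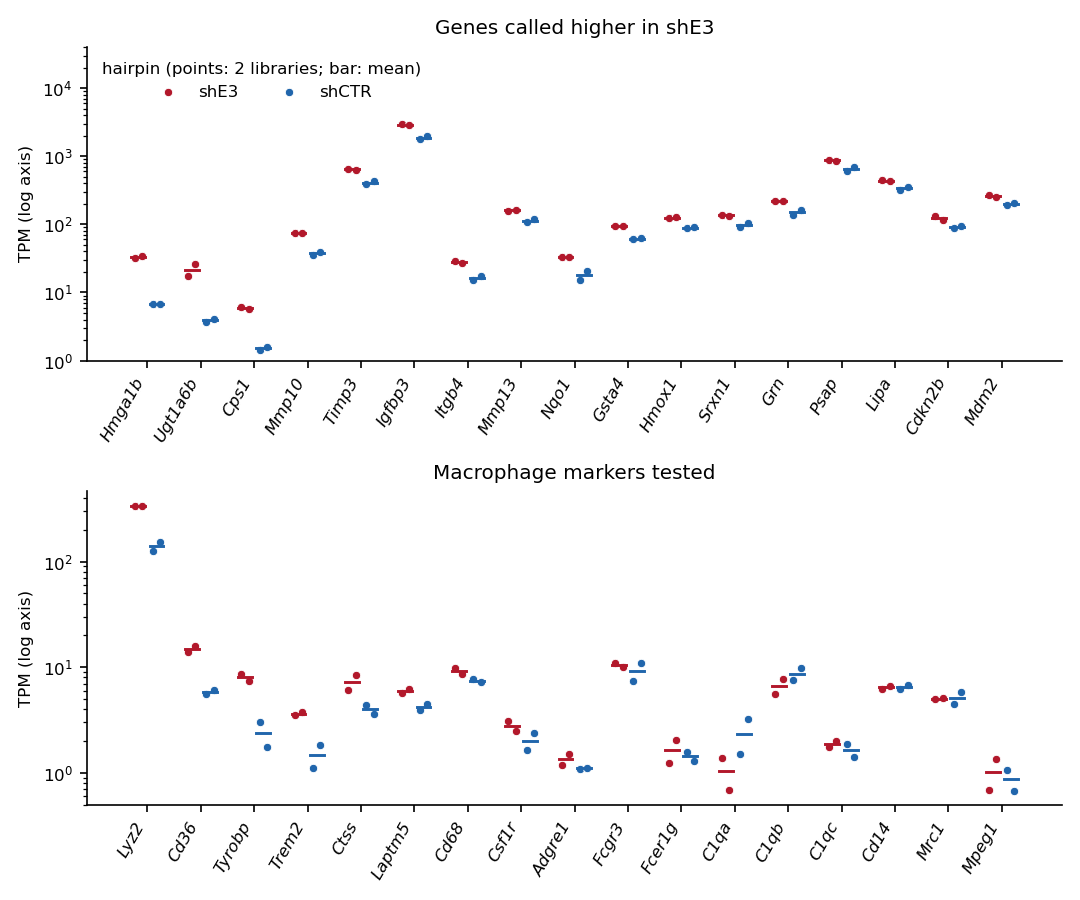
TPM (log axis) in each library, shE3 left of shCTR, of named genes called higher (top) and of the 17 tested macrophage markers (bottom), with a bar at the mean of 2 libraries. Lyz2, Cd36 and Tyrobp separate the groups, while Cd14 and Mrc1 lie at one level in all 4 libraries.

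Other inflammatory genes moved both ways, with 3 of 25 called higher and 4 lower (7 and 5 relative to the median gene). Ptgs1, cyclooxygenase 1, had 229 and 221 TPM in shE3 against 133 and 146 TPM in shCTR cells (0.69 ± 0.10, adjusted p = 0.000644). Cxcl3, a neutrophil chemokine, had 6.03 and 5.2 TPM in shE3 against 12.6 and 12.1 TPM in shCTR cells (-1.01 ± 0.13, adjusted p = 0.000505). Il6, Ccl2, Ccl7 and Ccl8 did not pass. Among immediate early and short-lived mRNAs, whose levels follow decay rates closely, 4 of 39 were called higher and 3 lower (13 and 4 relative to the median gene), and Fos, Jun, Egr1 and Zfp36 did not pass. The MAP kinase phosphatase Dusp5 had 8.46 and 8.65 TPM in shE3 against 4.16 and 4.35 TPM in shCTR cells (0.86 ± 0.14, adjusted p = 0.00165). Leaving out a library took the calls of that list to between 1 and 7 higher, and those of the inflammatory list to between 2 and 6 higher, with the highest values without shCTR 2.

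Genes of lineages other than fibroblast and endoderm were measured too. Flt1, a receptor of endothelial and trophoblast cells, had 5.19 and 4.93 TPM in shE3 against 19.3 and 19.5 TPM in shCTR cells (-1.75 ± 0.12, adjusted p = 1.01e-05), and 3 of 7 endothelial markers were called lower, with none higher. Myl3, a cardiac and slow muscle myosin light chain, had 5.02 and 3.32 TPM in shE3 against 18.5 and 25.6 TPM in shCTR cells (-2.16 ± 0.19, adjusted p = 3.66e-05). It overlaps Pth1r on the opposite strand. Pth1r had 21.5 and 22.9 TPM in shE3 against 66.7 and 72.6 TPM in shCTR cells and was called lower too. No strand setting is stated, so reads of the pair cannot be told apart and the fall of Myl3 is uncertain. Itgb4, an integrin of hemidesmosomes, was higher at 29.0 and 27.0 TPM in shE3 against 15.3 and 17.3 TPM in shCTR cells (0.75 ± 0.12, adjusted p = 0.00129). Of the muscle markers 2 of 5 were called lower and 1 higher, of the neural markers 2 of 8 lower and 1 higher, of the keratinocyte markers 2 of 6 higher, and of the adipocyte markers 1 of 4 each way. Muscle markers called lower came to 1 without shE3 1, shCTR 1 or shCTR 2, and neural ones to 1 without shE3 1, shE3 2 or shCTR 2. No muscle marker was called higher without shE3 2 or shCTR 1, and no neural one without either shE3 library. The adipocyte calls were lost in each fit that left out a library, and 1 keratinocyte marker was called higher without either shE3 library. Summed levels of these lists ran from 22.2 TPM for adipocyte to 210 TPM for keratinocyte markers. Keratinocyte markers summed to 210 and 200 TPM in shE3 against 148 and 162 TPM in shCTR libraries, and endothelial ones to 57.2 and 55.4 against 88.3 and 93.2 TPM.

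A few large rises rest on gene models that share sequence with a neighbour or copy. Hmga1b had 32.2 and 34.4 TPM in shE3 against 6.73 and 6.66 TPM in shCTR cells (2.15 ± 0.12, adjusted p = 3.03e-06), while the near-identical chromatin protein gene Hmga1 had 46.6 and 45.3 TPM in shE3 against 48.7 and 59.0 TPM in shCTR cells and did not pass. Both together summed to 78.8 and 79.6 TPM in shE3 against 55.4 and 65.7 TPM in shCTR cells. Ugt1a6b, a glucuronosyltransferase whose exons the Ugt1a cluster shares, had 17.2 and 26.0 TPM in shE3 against 3.70 and 4.14 TPM in shCTR cells (2.17 ± 0.18, adjusted p = 2.39e-05). These assignments are uncertain for that reason. Cps1, the carbamoyl phosphate synthetase of the urea cycle, has no such overlap in the annotation and had 6.07 and 5.62 TPM in shE3 against 1.45 and 1.57 TPM in shCTR cells (1.45 ± 0.17, adjusted p = 0.000192).

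Housekeeping lists moved by small steps. Of 75 cytosolic ribosomal protein genes 12 (16%) were called lower and none higher, near the 12.3% of all tested genes called lower. Relative to the median gene 26 were called lower, against 13.9% of all. Rps13 had 59.3 and 76.2 TPM in shE3 against 109 and 133 TPM in shCTR cells (-0.83 ± 0.13, adjusted p = 0.00168). That count ran from 2 without shE3 1 to 43 without shCTR 1. Sterol and fatty acid synthesis genes were called lower in 7 of 30 (23.3%) and higher in none (11 lower relative to the median gene). Without either shE3 library 1 sterol gene was called, and without shCTR 1, 12 were. Of 35 nuclear ribosome biogenesis genes, 5 (14.3%) were called lower and 1 higher (6 and 3 relative to the median gene). That share lower is also near the one of all tested genes. Gar1, a protein of H/ACA snoRNPs, had 3.6 and 3.11 TPM in shE3 against 7.49 and 7.22 TPM in shCTR cells (-0.94 ± 0.15, adjusted p = 0.00149). Without either shE3 library 2 genes of that list were called lower.

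The same genes were set beside CD against DMSO and Rxra OE against CTR, each fitted in its own table relative to the median gene and with its own controls. The shE3 calls in this paragraph are those of the values as deposited, so the scaling differs between the sides. In CD cells 30.5% of 13006 tested genes were called higher and 31.1% lower (61.7% in all), and in Rxra OE cells 35.1% of 13305 were called higher and 35.5% lower (70.5% in all). Of the 1621 genes called lower in shE3 and tested in CD, 1218 (75.1%) were called higher in CD and 131 lower. Those 1218 are 31.9% of the genes called higher in CD. Of the 639 called higher in shE3, 519 (81.2%) were called lower in CD and 19 higher, and the 519 are 12.9% of the genes lower in CD. For Rxra OE, 1360 of 1647 (82.6%) genes lower in shE3 were called higher and 116 lower, and 570 of 638 (89.3%) genes higher in shE3 were called lower and 15 higher. These are 30.9% and 12.2% of the calls in Rxra OE. A gene called in shE3 as deposited was thus mostly called in the opposite direction in the other tables. The overlap for shE3 calls relative to the median gene is not given here. Over all genes tested in both tables, 30.0% were called higher and 31.7% lower in CD, and 34.1% and 36.3% in Rxra OE.

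Exosc3 itself rose by 0.69 in CD and 1.05 in Rxra OE cells. For the core subunits 8 of 11 were called higher in CD and 8 of 11 in Rxra OE, and none lower. Mitosis genes were called higher in 53 of 55 in CD and 54 of 55 in Rxra OE, and epithelial genes in 30 of 31 in both. Cyp26a1 rose by 2.05 in CD and 2.69 in Rxra OE cells, Meg3 by 0.98 and 2.93, and Car4 by 2.97 and 1.95. In the other direction Timp3 fell by 0.74 in CD and 2.32 in Rxra OE cells, and Cdkn1a by 1.08 and 1.72.

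Not all lists moved in opposite directions, with all 3 comparisons taken relative to the median gene. Replication-dependent histone genes were called lower in 46 of 50 in shE3, in 20 of 23 in CD and in 17 of 22 in Rxra OE cells. Mitosis genes were higher in CD and Rxra OE cells. Fewer histone genes were tested in CD and Rxra OE than in shE3, so the sets of members differ. Sterol synthesis genes were called lower in 11 of 30 in shE3, 26 of 30 in CD and 22 of 30 in Rxra OE cells. Genes encoded by mitochondrial DNA were called lower in 5 of 13 in shE3, 10 of 11 in CD and 10 of 11 in Rxra OE cells, and as deposited the shE3 count was 2 without either shE3 library, 8 without shCTR 1 and 10 without shCTR 2. Single genes did the same: Col3a1 changed by -1.40 in CD and -1.78 in Rxra OE cells, Igf1 by -1.34 and -2.15, and the retinoic acid carrier Crabp2 by -0.51 and -1.05, and all 3 were called lower in shE3 as well, although not without shE3 1 or without shE3 2. Hmga1b was higher in shE3 and in CD (1.06) and did not pass in Rxra OE (-0.06). Of 34 fibroblast genes, 25 were called lower in CD and 29 in Rxra OE, and in shE3 18 were called higher and 2 lower. Whether these differences between tables exceed their spread was not tested.

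**Figure D5:**
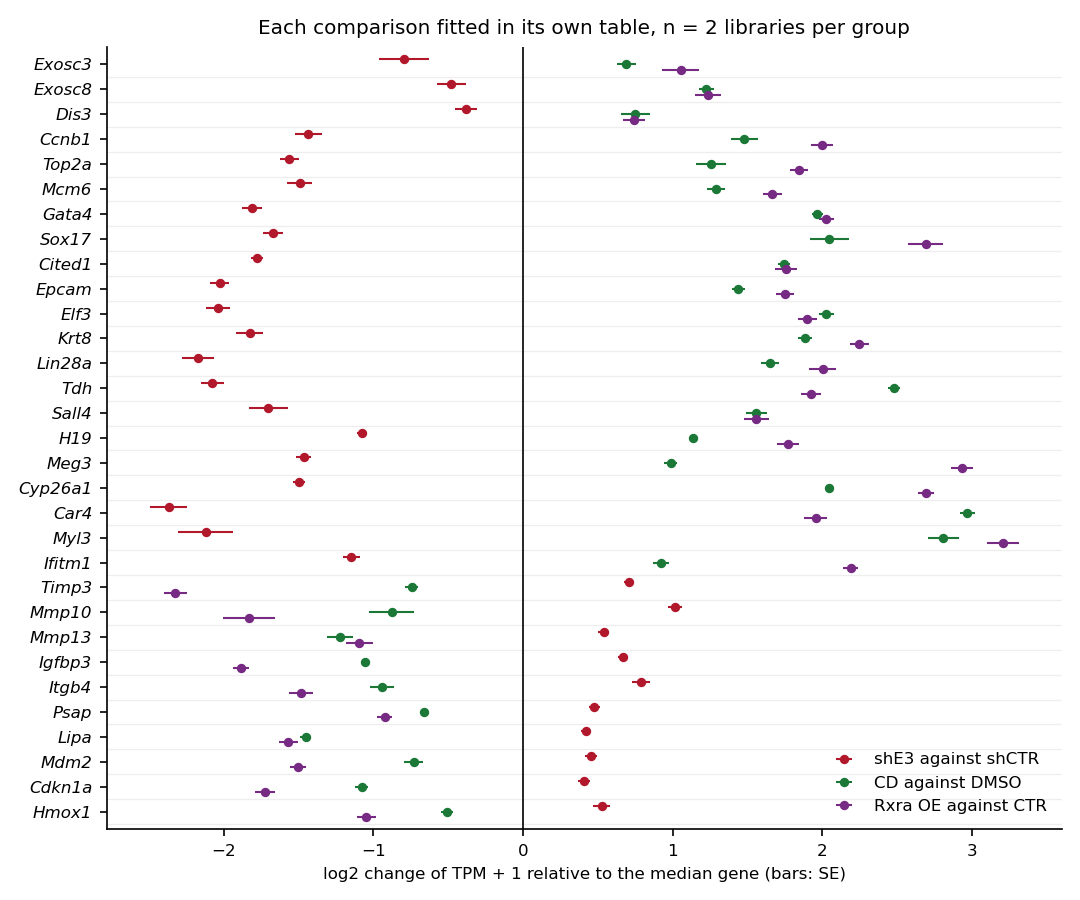
Log2 change of TPM + 1 relative to the median gene, with SE bars, for 31 named genes in shE3 against shCTR, CD against DMSO and Rxra OE against CTR (n = 2 libraries per group, each comparison in its own table). The genes were picked after their values were seen, as ones called in shE3 that lie on the other side of 0 in CD and Rxra OE, such as Cyp26a1 (2.05 in CD and 2.69 in Rxra OE). Genes such as Col3a1 and Igf1, lower in all 3 comparisons, are not drawn.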

How the data were processed

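The measure was gene-level TPM from total RNA libraries. Build mm10 and the programs HISAT2 2.1.0, StringTie 2.0 and fastp 0.20.1 are named in the submitters' processing notes, without their settings. The deposited values are taken as TPM because shE3 1, for example, sums to 999969, and the file headers do not name the unit. TPM holds no depth, so counting error is unknown. Genes were named from GENCODE M21 (GRCm38), which named 55141 of 55401 identifiers. Genes with 1 TPM or more in at least 2 of the 4 libraries were tested on log2(TPM + 1) with limma 3.58.1 in R 4.3.3 (empirical Bayes with trend), 2-sided, with Benjamini-Hochberg adjustment over all 15700 genes and a threshold of 0.05. The test was checked on simulated data for shE3 against shCTR over 15700 genes: 90 of 100 genes changed by log2 1 and 100 of 100 changed by log2 2 were recovered, with 6 false calls. The changed genes were drawn only from those at a mean log2 level of 5 TPM or more. Spread was simulated gene by gene, with no shift of a whole library. The check therefore does not cover the recovery of lower genes or the effect of scaling. CD and Rxra OE were fitted in their own tables. Genes named in the text are Exosc3, Rxra, the exosome core, the 15 largest changes per direction (past the threshold, groups not overlapping, mean of 5 TPM or more in the higher group, above 0 in all libraries) and the 4 smallest p-values per list; others named were chosen after their values were seen. The members and gene lists were chosen with earlier results of these data known. Sequences are from RefSeq (GRCm38.p6).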

Additional observations from a re-analysis of the deposited data

How the results depend on the processing

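The count of calls depends on the filter, the scaling and single libraries. As deposited, 2695 genes were called, 761 higher and 1934 lower. With no filter on low values 26 were called, 6 higher and 20 lower, and with neither filter nor trend, an alternative chosen after seeing the data, 73, 17 and 56. With libraries scaled to the median gene 4410 genes were called, 2224 higher and 2186 lower, with quantile scaling 4061 and 2147 higher, and with TPM rescaled over nuclear protein-coding genes, also chosen after seeing the data, 4294, 1514 and 2780. Without a trend 391 genes were higher. Leaving out 1 library gave 1700 to 3079 calls, 253 to 1816 higher and 1263 to 2001 lower. Exosc3 changed by -0.83 with an adjusted p of 0.478 with no filter and 0.597 with neither filter nor trend, and by -1.07 to -0.59 when 1 library was left out. Exosc5 changed by -0.02 as deposited, by 0.0207 relative to the median gene, by 0.0651 with quantile scaling, and by -0.103 to 0.0627 when 1 library was left out (above 0 without shE3 2 or shCTR 2). The cause of these shifts was not tested.

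The replicate block gave 2809 calls, 703 higher and 2106 lower, and 7 of the 181 named genes missed the threshold under it. The labels do not say that the replicate numbers pair the libraries. The deviations of same-numbered libraries correlated by 0.0752. With 2 libraries per group both numbers must give the same value, so it is a single value and cannot decide whether the libraries are paired. Of the named genes, 172 missed the threshold with no filter, 50 without shE3 1, 57 without shE3 2, 16 without shCTR 1 and 17 without shCTR 2. With TPM values the depth of each library is unknown.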
